A study of Mus musculus with 6 samples.

Results

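The genes of the cytosolic ribosomal proteins were examined in an ATAC-seq data set of mouse liver, with every peak annotated to a gene symbol that begins with Rpl or Rps and a digit, or to Rpsa, Rplp0, Rplp1 or Rplp2. Symbols of the Rps6k kinases and of pseudogenes named with -ps were left out. The rule found 56 of the 22412 deposited peaks, at 52 of 10709 genes. The peak with the highest mean reads stood for its gene. Of the 52 genes, 22 encode proteins of the small (40S) subunit and 26 encode proteins of the large (60S) subunit. The other 4 are the paralogs Rpl7l1, Rpl22l1 and Rps27l, and Rps19bp1, which encodes a protein that binds a ribosomal protein and is not itself one. The RefSeq gene table lists 89 protein-coding mouse genes with a symbol of this kind, and the 37 without a peak in the table, Rpsa, Rplp0 and Rplp1 among them, were not analysed here.

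Accessibility was compared between 3 libraries from liver with Dyrk1b overexpression, titled Ad-Dyrk1b, and 3 control libraries, titled Ad-EGFP. Below, a Dyrk1b or control liver stands for its library. In ATAC-seq a transposase cuts open chromatin in nuclei and tags the fragments for sequencing. Dyrk1b is a kinase of the DYRK family, EGFP is a green fluorescent protein, and the prefix Ad is the usual one for an adenoviral vector, which the control livers would then carry as well. The sources used here do not give strain, sex, age, vector dose or time after delivery. They also do not say whether replicates of a group are different animals, and the spread behind each p-value may thus be technical. Whole livers were lysed to nuclei, so fewer nuclei of a cell type and less accessibility per nucleus cannot be told apart.

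The cytosolic ribosome joins a small subunit, which reads the mRNA, to a large subunit, which forms the peptide bonds. Its proteins are encoded by separate genes scattered over the chromosomes and are needed in matched amounts. Hepatocytes make albumin and most other plasma proteins, and their protein synthesis follows feeding and insulin, largely through mTORC1. Promoters of ribosomal protein genes are known for open chromatin in almost every cell type, for binding sites of ETS factors, SP1 and YY1, and for a run of pyrimidines at the start site that places the transcripts under mTORC1 control in translation.

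Libraries held 768418 to 1267934 reads in peaks in Dyrk1b livers and 762633 to 855787 in control livers. These were 1.67% to 2.63% and 1.89% to 2.22% of the library totals behind the authors' RPKM values. A member peak held 5 to 169 reads in a library, so single peaks carry sizeable counting error. The peak at exon 9 of the Dyrk1b gene itself, where DNA of a vector with the coding sequence would also be read, had 35.8, 33.1 and 40.7 CPM in Dyrk1b livers and 11.7, 1.21 and 4.03 CPM in control livers (log2 change 2.64 ± 0.50, SE, adjusted p = 0.00981, edgeR quasi-likelihood test with Benjamini-Hochberg adjustment). The other Dyrk1b peak, also exonic, had 43.8, 30.9 and 29.9 CPM in Dyrk1b livers and 10.6, 10.9 and 12.1 CPM in control livers, which did not overlap, and did not pass the test (1.61 ± 0.42, adjusted p = 0.107). CPM express a count relative to the TMM-scaled sum of peak reads in its library. Of 8 hepatocyte markers, Alb, Apoa1, Fgb and Hnf4a had a peak, and of 24 markers of other liver cells 7 did.

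Ribosomal protein genes were open at their starts. The strongest peak lay within 1 kb of the annotated start in 50 of 52 genes, against 56.4% of all genes, and within 200 bases in 39. The authors' annotation put 30 of these peaks in promoters, 11 in 5′ UTRs, 9 in introns and 2 in exons. The exceptions were Rpl3, with a peak in intron 1 of 3 at 8404 bases, and Rps24, with a peak in a 5′ UTR at 3647 bases. Rpl3 is a core protein of the large subunit near the peptidyl transferase centre, and Rps24 belongs to the small subunit.

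Promoter windows are shown for 6 genes that carry the points of the comparison below. They are Rps7, Rps9 and Rpl26, which had low unadjusted p-values and lower accessibility in Dyrk1b livers, Rpl31, in which Dyrk1b livers were higher, and Rps15a and Rpl28, which hold a YY1-type motif. Each window runs 5′ to 3′ on the strand of the gene, from 100 bases before to 20 bases from the start on, from RefSeq on GRCm38.p6. Capitals mark CCGGAA, AANATGGC or TATAAA on either strand, and CTTTCC near the start on the strand of the gene. The Rps7 window lies at chr12:28635934-28636053 on the minus strand, that of Rps9 at chr7:3703941-3704060 on the plus strand, that of Rpl26 at chr11:68901466-68901585 on the plus strand, that of Rpl31 at chr1:39367751-39367870 on the plus strand, that of Rps15a at chr7:118116128-118116247 on the minus strand and that of Rpl28 at chr7:4792865-4792984 on the plus strand. Peak positions given later are those of the deposited table, whose build is not named in it, and cannot be laid over these windows.
Rps7: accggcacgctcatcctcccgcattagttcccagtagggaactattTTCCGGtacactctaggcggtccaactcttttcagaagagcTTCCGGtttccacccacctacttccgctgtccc
Rps9: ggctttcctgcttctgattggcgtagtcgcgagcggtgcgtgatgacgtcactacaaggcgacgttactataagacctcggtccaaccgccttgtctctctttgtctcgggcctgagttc
Rpl26: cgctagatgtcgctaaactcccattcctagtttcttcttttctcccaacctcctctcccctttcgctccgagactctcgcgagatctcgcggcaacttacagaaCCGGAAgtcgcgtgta
Rpl31: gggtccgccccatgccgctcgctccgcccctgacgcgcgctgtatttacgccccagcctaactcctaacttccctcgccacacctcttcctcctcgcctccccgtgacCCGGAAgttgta
Rps15a: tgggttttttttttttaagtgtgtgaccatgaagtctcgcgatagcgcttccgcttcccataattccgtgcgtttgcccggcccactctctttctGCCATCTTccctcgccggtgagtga
Rpl28: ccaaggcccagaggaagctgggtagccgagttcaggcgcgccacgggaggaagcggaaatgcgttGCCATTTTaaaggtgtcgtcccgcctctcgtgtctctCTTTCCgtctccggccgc

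The Rps7 window holds CCGGAA on the opposite strand at a pair of places, Rpl26 and Rpl31 hold it close to the start, and the Rps9 window holds none of the marked motifs. Promoters from 250 bases before to 50 after the start were at hand for 38 of the 52 genes. The core ETS motif CCGGAA, on either strand, was in 24 of the 38 (63.2%), in 34.4% of 4885 genes whose strongest peak lies within 1 kb of the start, and in 16.7% of all 27025 genes of the promoter table. The longer CCGGAAGT, which contains CCGGAA, was in 8 (21.1%), 10.3% and 4.31%. The YY1-type AANATGGC was in 8 (21.1%), against 10.4% and 6.96%, and its form AAGATGGC in 3 (7.89%), against 5.49% and 3.19%. The SP1 motif GGGCGG ran the other way among genes open at their start, in 22 (57.9%) against 71.5%, with 38.2% of all genes, and TATAAA was in 4 (10.5%), 8.02% and 15.7%. Within 20 bases of the start on the strand of the gene, CTTTCC was in 3 (7.89%), against 2.64% and 2.30%, and CTTTTCC in 1 (2.63%), against 0.614% and 0.555%. Pyrimidines made up a median of 62.5% of the 5 bases on each side of the start in the 38 genes, above the median of the 4885. A match is a description of the letters and not evidence of binding.

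Accessibility at ribosomal protein genes was of ordinary height for open promoters. Over all 6 libraries the median level was 86.7 CPM per kb of peak (interquartile range 75.3 to 93.6), against 84.0 (72.1 to 98.4) in genes open within 1 kb of their start. Peaks were of like length, with a median of 644 against 652 bases. Among the highest levels were those of Rps14 (135 CPM per kb), Rpl11 (124), Rps19 (122), Rpl7 (115) and Rpl31 (108). The lowest were those of Rpl24 (53.3), Rpl15 (56.1), Rps23 (63.0) and Rpl10 (63.3). Of the genes at the top, Rps14 and Rps19 encode small-subunit proteins whose partial loss causes anaemia in humans, and Rpl11 encodes a large-subunit protein that binds Mdm2 when ribosome assembly is disturbed. At the other end, Rpl10 encodes a protein that joins the large subunit late in its maturation.

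With TMM normalization summed accessibility at the ribosomal protein genes was lower in Dyrk1b livers, and no single gene passed the test. Over the 52 strongest peaks the sum was 2681, 2808 and 2548 CPM in Dyrk1b livers (2679 ± 130, SD, n = 3), against 3439, 2938 and 3107 CPM in control livers (3161 ± 255, SD, n = 3). On this scale the 3 Dyrk1b livers all lay under the 3 control livers, and control 1 stood highest. With RPKM library totals as the scale, the same reads came to 43.9, 66.9 and 68.7 per M in Dyrk1b livers, against 76.1, 54.4 and 59.7 per M in control livers, and the groups overlapped, so the separation of the sums depends on the scaling. The log2 change, Dyrk1b over control, was negative in 43 of 52 genes (82.7%), where it was negative in 59.7% of the 6036 tested genes open near their start and in 55.1% of all genes. Its median was -0.27 (interquartile range -0.42 to -0.04), against -0.09 in genes open near their start and -0.05 in all genes. None of the 52 passed the edgeR quasi-likelihood test at a Benjamini-Hochberg adjusted p under 0.05, which 0.0663% of genes open near their start, 0.0471% of all genes and 0.0317% of all peaks did pass. At an unadjusted p under 0.05, 7 were lower (13.5%) and 0 higher, where 9.03% of genes open near their start were lower and 3.64% higher. DESeq2 gave no adjusted p to 25 of the 52 and called none of the others. It had 6 of the 52 lower at an unadjusted p under 0.05, where 8.18% of genes open near their start were lower.

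**Figure D1:**
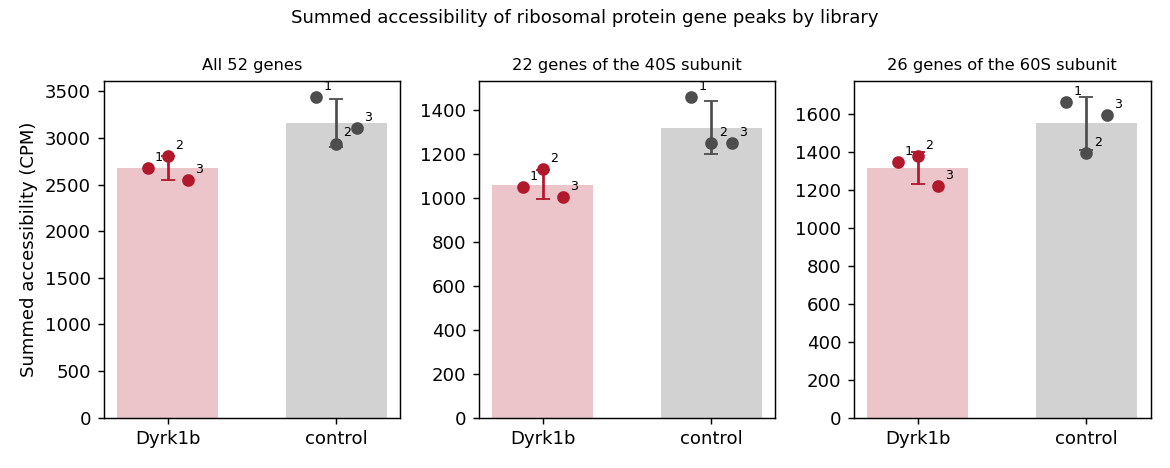
Summed accessibility (CPM) of the strongest peaks of all 52 genes, the 22 genes of the 40S subunit and the 26 of the 60S subunit, with bars for the mean, error bars for the SD and numbered points for the libraries, Dyrk1b left of control. With TMM scaling the 3 Dyrk1b livers lie under the 3 control livers in each panel, which does not hold with RPKM library totals.

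The group median rests in part on control 1. Without that library the median of the ribosomal protein genes was -0.16, against -0.08 in genes open near their start, and 39 of 52 changes were negative. In single libraries the median level of the 52 genes was 5.61, 5.84 and 5.52 log2 CPM in Dyrk1b livers and 6.11, 5.78 and 5.91 in control livers, so that Dyrk1b 2 lay above control 2. With TMM the sum therefore separated the groups while the median of log2 CPM did not. The median per kb of peak did, at 79.2, 76.7 and 74.1 CPM in Dyrk1b livers and 96.6, 84.8 and 89.5 CPM in control livers. Genes open near their start, as a whole, had medians of 5.75, 5.81 and 5.75 log2 CPM in Dyrk1b livers and 5.84, 5.83 and 5.88 in control livers, also without overlap. Their median per kb did not overlap either, at 81.2, 83.5 and 80.3 CPM in Dyrk1b livers and 87.1, 85.3 and 86.8 CPM in control livers. Scaling to the RPKM library totals brought the median of the ribosomal protein genes to -0.11 and that of genes open near their start to 0.08, and left 32 of 52 changes negative (61.5%, against 40.4%).

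**Figure D2:**
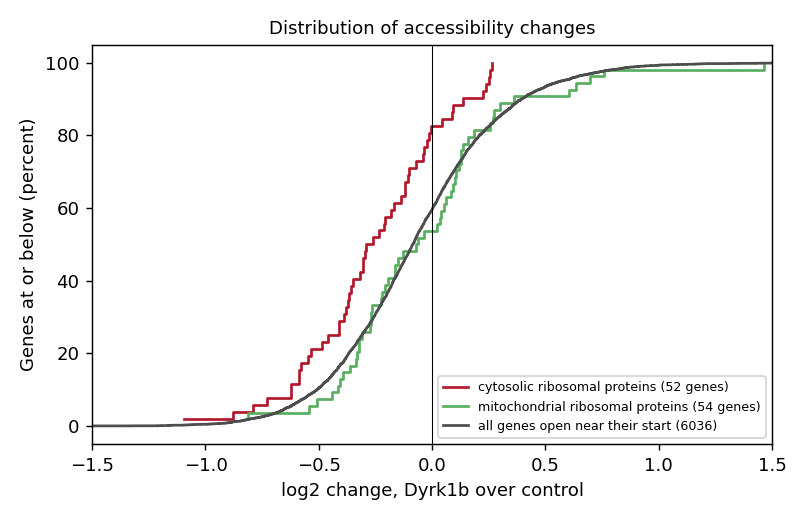
Share of genes (percent, y axis) at or below each log2 change, Dyrk1b over control (x axis), for 52 cytosolic and 54 mitochondrial ribosomal protein genes and 6036 genes open within 1 kb of their start. The cytosolic curve lies left of the others over most of its length and ends at 0.26.

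At small-subunit genes 19 of 22 log2 changes were negative, and their median was -0.38. Their summed level was 1051, 1130 and 1004 CPM in Dyrk1b livers, against 1460, 1250 and 1250 CPM in control livers, with no overlap. At large-subunit genes 22 of 26 were negative and the median was -0.25, with sums of 1347, 1382 and 1223 CPM in Dyrk1b livers, against 1665, 1397 and 1596 CPM in control livers. These did not overlap either, with Dyrk1b 2 just under control 2, but did so when scaled to reads in peaks alone, and both subunits overlapped with RPKM library totals. The subunits were not tested against each other. Of the 7 genes at an unadjusted p under 0.05, 6 belong to the small subunit (27.3% of its genes) and 1 to the large subunit (3.85%). Among genes open near their start 9.03% were lower at that threshold. The shares of genes without overlap and with Dyrk1b livers lower were alike, at 18.2% in the small and 19.2% in the large subunit, against 12.5%. In the paralogs and Rps19bp1 the median was 0.04, with 2 of 4 negative.

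**Figure D3:**
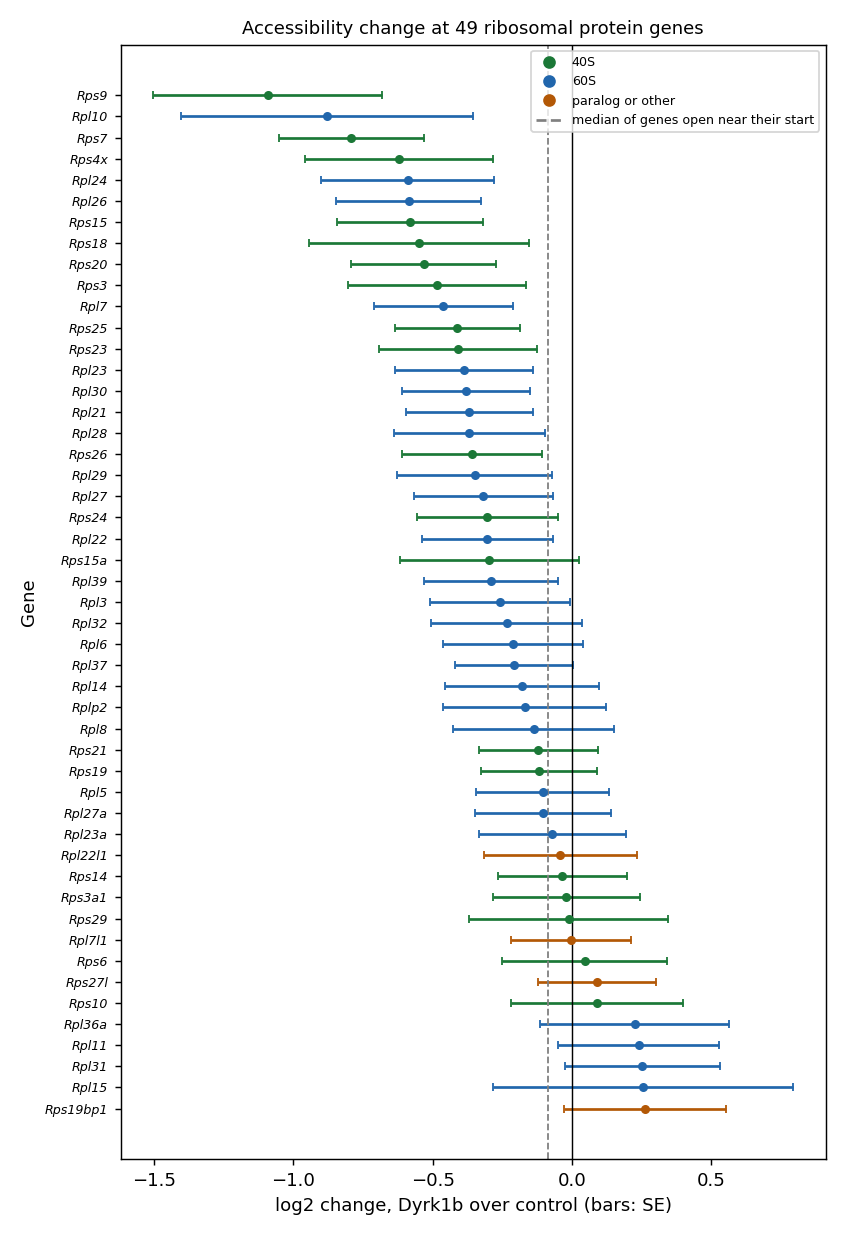
Log2 change, Dyrk1b over control (x axis), of 49 of the 52 genes (y axis), with bars for the SE and colours for the subunit. The dashed line marks the median of genes open near their start at -0.09, and the genes run from Rps9 at -1.09 to Rps19bp1 at 0.26.

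Among small-subunit genes, Rps7 had the lowest p. Rps7 encodes a protein of the small-subunit body that also binds Mdm2, and its promoter peak (chromosome 12, 28685594 to 28686368) lies 29 bases before the start. It had 54.4, 44.1 and 32.2 CPM in Dyrk1b livers, against 96.1, 63.2 and 61.8 CPM in control livers. Each Dyrk1b liver lay under each control liver, and control 1 was far above the other two. The log2 change was -0.79 ± 0.26 (SE, unadjusted p = 0.00335, adjusted p = 0.188, edgeR quasi-likelihood test with Benjamini-Hochberg adjustment), and it was -0.55 without control 1. In the authors' deposited table Rps7 had a log2 ratio of -0.67, a p of 0.0468 and an FDR of 0.487, the lowest FDR of the 52 genes.

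Rps9, whose bacterial and yeast counterparts take part in the accuracy of decoding, had a weak peak at its 5′ UTR (chromosome 7, 3706890 to 3707218) with 13, 12 and 19 reads in Dyrk1b livers and 25, 39 and 14 reads in control livers. These were 17.3, 13.2 and 14.6 CPM in Dyrk1b livers, against 29.3, 47.4 and 18.8 CPM in control livers, without overlap and with a wide spread among controls. Its log2 change of -1.09 ± 0.41 (SE, adjusted p = 0.24, edgeR quasi-likelihood test) was the most negative of the 52, and it was -0.69 without control 2. The authors' deposited table gives Rps9 a log2 ratio of -0.93 and a p of 0.0482.

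Rps15 and Rps20 were also at an unadjusted p under 0.05. Rps15, which reaches toward the decoding site from the head, had 42.5, 56.2 and 33.0 CPM in Dyrk1b livers, against 71.5, 54.7 and 68.6 CPM in control livers, and Dyrk1b 2 lay above control 2 (log2 change -0.58 ± 0.26, adjusted p = 0.309, edgeR quasi-likelihood test). Rps20 had 59.7, 47.4 and 35.3 CPM in Dyrk1b livers, against 83.2, 65.6 and 52.4 CPM in control livers (log2 change -0.53 ± 0.26, adjusted p = 0.345, edgeR quasi-likelihood test). Here too the groups overlapped, with Dyrk1b 1 above control 3. Without Dyrk1b 3 the change was -0.38 at Rps15 and -0.33 at Rps20, and without control 1 it was -0.35 at Rps20. Rps4x, an X-linked small-subunit gene, did not overlap between groups, at 18.6, 25.4 and 27.6 CPM in Dyrk1b livers against 32.8, 36.4 and 43.0 CPM in control livers (log2 change -0.62 ± 0.34, adjusted p = 0.393, edgeR quasi-likelihood test).

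Other small-subunit genes lay at or near no change. Rps6, the substrate of the S6 kinases downstream of mTORC1, had 30.5, 36.4 and 50.7 CPM in Dyrk1b livers and 43.4, 38.9 and 33.6 CPM in control livers (log2 change 0.05 ± 0.30). The ranges overlap almost fully. Rps10 spread widely within each group, with 25.2, 36.4 and 66.0 CPM in Dyrk1b livers and 27.0, 36.4 and 61.8 CPM in control livers (0.09 ± 0.31). Rps14 and Rps19, with some of the highest levels, had log2 changes of -0.04 ± 0.23 and -0.12 ± 0.21. Rps14, at 82.3, 61.7 and 68.3 CPM in Dyrk1b livers and 70.3, 82.6 and 63.2 CPM in control livers, overlapped fully, as did the peak of Rps3a1 in exon 1 of 6, with 99.5, 59.5 and 43.0 CPM in Dyrk1b livers and 97.3, 46.2 and 55.1 CPM in control livers (-0.02 ± 0.26).

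Among large-subunit genes Rpl26 had the lowest p. It encodes a protein near the exit of the nascent chain, and its promoter peak (chromosome 11, 68791938 to 68792494) had 46.4, 40.8 and 43.8 CPM in Dyrk1b livers, against 83.2, 49.8 and 63.2 CPM in control livers. The Dyrk1b livers lay close together under the widely spread controls. The log2 change was -0.59 ± 0.26 (SE, unadjusted p = 0.0271, adjusted p = 0.302, edgeR quasi-likelihood test), and -0.37 without control 1. Rpl24 had 27.9, 41.9 and 26.1 CPM in Dyrk1b livers and 70.3, 42.5 and 29.6 CPM in control livers, with overlap (-0.59 ± 0.31, adjusted p = 0.379, edgeR quasi-likelihood test), and its change was -0.19 without control 1. Rpl7 had 57.1, 55.1 and 46.8 CPM in Dyrk1b livers and 66.8, 52.2 and 99.5 CPM in control livers, with overlap (-0.46 ± 0.25, adjusted p = 0.394, edgeR quasi-likelihood test).

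**Figure D4:**
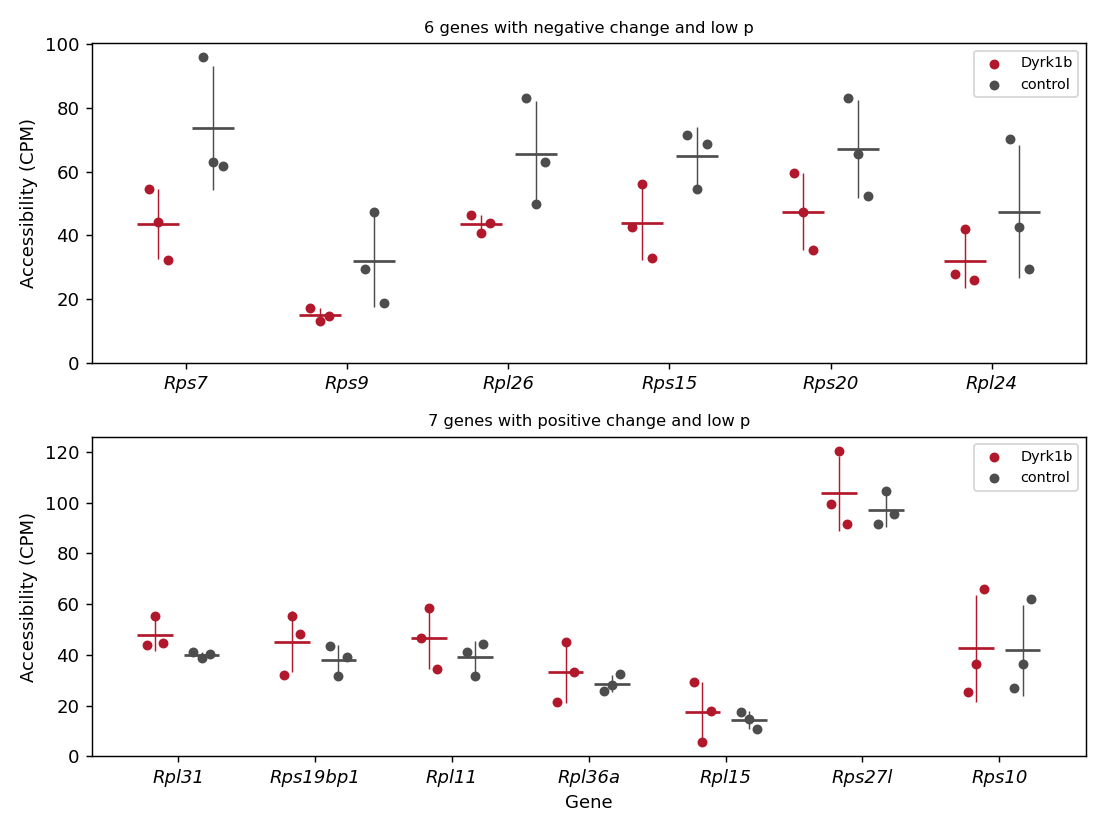
Accessibility (CPM) in each library, as points with the mean and SD as bars, Dyrk1b left of control, for 6 genes with a negative and 7 with a positive log2 change that had low p-values. Control 1 is the highest library at Rps7, Rpl26, Rps15, Rps20 and Rpl24, and the lower row shows broad overlap at all genes other than Rpl31.

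Rpl10, Rpl21, Rpl23 and Rpl39 shared with Rpl26 that each Dyrk1b liver lay under each control liver. Rpl10 had 14.6, 5.51 and 13.8 CPM in Dyrk1b livers, against 24.6, 19.4 and 18.8 CPM in control livers (log2 change -0.88 ± 0.52, adjusted p = 0.435, edgeR quasi-likelihood test), on 5 to 21 reads per library. Rpl21 had 73.0, 73.9 and 54.5 CPM in Dyrk1b livers, against 90.3, 86.2 and 80.7 CPM in control livers (-0.37 ± 0.23). In Rpl23 the values were 59.7, 56.2 and 41.5 CPM in Dyrk1b livers, against 63.3, 74.1 and 65.9 CPM in control livers (-0.39 ± 0.25). Rpl39, a very small protein in the exit tunnel, had tight controls, with 49.1, 66.2 and 54.5 CPM in Dyrk1b livers, against 70.3, 70.5 and 67.2 CPM in control livers (-0.29 ± 0.24). Over all 52 genes 9 did not overlap with Dyrk1b lower (17.3%, where 12.5% of genes open near their start did so) and 1 with Dyrk1b higher (1.92%, against 5.1%).

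That gene was Rpl31, a protein at the rim of the exit tunnel. Its promoter peak (chromosome 1, 39406613 to 39407020) had 43.8, 55.1 and 44.5 CPM in Dyrk1b livers and 41.0, 38.9 and 40.3 CPM in control livers. The separation was narrow and the log2 change was 0.25 ± 0.28 (adjusted p = 0.693, edgeR quasi-likelihood test). Rpl11 had 46.4, 58.4 and 34.6 CPM in Dyrk1b livers and 41.0, 31.6 and 44.4 CPM in control livers, with overlap (0.24 ± 0.29). Rpl36a had 21.2, 45.2 and 33.0 CPM in Dyrk1b livers and 25.8, 27.9 and 32.3 CPM in control livers, also with overlap (0.23 ± 0.34). The intronic Rpl15 peak was the noisiest, at 29.2, 5.51 and 17.7 CPM in Dyrk1b livers and 17.6, 14.6 and 10.8 CPM in control livers (0.25 ± 0.54). With a library left out the change ran from 0.14 to 0.31 at Rpl31 and from 0.036 to 0.44 at Rpl11. Rplp2, the only gene of the acidic stalk with a peak, had 51.8, 61.7 and 25.3 CPM in Dyrk1b livers and 66.8, 52.2 and 32.3 CPM in control livers (-0.17 ± 0.29). At Rplp2 the replicates within a group differed more than the group means did.

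Of the genes that are not core ribosomal proteins, Rps19bp1 had 31.8, 55.1 and 48.4 CPM in Dyrk1b livers and 43.4, 31.6 and 39.0 CPM in control livers (log2 change 0.26 ± 0.29, and 0.11 to 0.44 with a library left out). Rps27l, a paralog of Rps27 induced by p53, had 99.5, 120 and 91.4 CPM in Dyrk1b livers and 91.5, 104 and 95.5 CPM in control livers (0.09 ± 0.21). Rpl7l1 and Rpl22l1 had changes of -0.0043 ± 0.22 and -0.04 ± 0.27. All 4 genes overlapped between groups. Left to the 48 core genes, the median was -0.30, with 41 negative.

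Genes had similar medians whatever the class of their peak, which were not tested against each other. The median log2 change was -0.29 at the 30 promoter peaks, of which 26 were negative, and -0.30 at the 11 peaks in 5′ UTRs, with 8 negative. The 9 intronic peaks had a median of -0.21, with 7 negative, and the 2 exonic ones -0.20, with 2 negative. The peak of Rpl3, at 8404 bases from the annotated start, had 55.7, 49.6 and 51.5 CPM in Dyrk1b livers and 71.5, 48.6 and 67.2 CPM in control livers (-0.26 ± 0.25), and the groups overlapped. Other start sites of Rpl3 were not examined. The other intronic peaks were those of Rps15, Rps18 (-0.55 ± 0.40), Rpl24, Rpl6 (-0.21 ± 0.25), Rpl5 (-0.11 ± 0.24), Rpl23a (-0.07 ± 0.26), Rpl36a and Rpl15. Further peaks had log2 changes of -0.02 ± 0.25 at Rps14, -0.27 ± 0.39 in exon 1 of 2 at Rps24 and 0.22 ± 0.40 in intron 1 of 2 at Rps29, whose strongest peak had -0.01 ± 0.36.

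Values are also given by chromosome and by promoter motif. All 9 genes on chromosome 7 had negative changes, with a median of -0.37, while of 5 on chromosome 4 there were 2, with a median of 0.05. Over all 52 genes 82.7% were negative, and chromosomes, with few genes each, were not tested against each other. Among the 38 genes with a promoter sequence, the median was -0.18 in the 24 with CCGGAA, of which 18 were negative, and -0.34 in the 14 without, of which 12 were negative. All 8 with AANATGGC had negative changes, with a median of -0.30, and of the 30 without it 22 did, with a median of -0.21. Rps15a (-0.30 ± 0.32) and Rpl28 (-0.37 ± 0.27), whose windows are printed above, are among them. The 22 genes with GGGCGG had a median of -0.12 and the 16 without it -0.36. Genes with and without a motif were not tested against each other.

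Base composition of the promoter ran along with the change. The promoters had a median GC content of 56.8%, against 61.3% in genes open near their start. Across the 38 genes the log2 change and the GC content had a Spearman rho of 0.52, and across 4879 genes open near their start it was 0.08. All points share the same 6 libraries. Between 50% and 55% GC the 11 ribosomal protein genes had a median of -0.41, where the other genes had -0.08, and between 55% and 60% the 14 had -0.30, where the others had -0.12. From 60% to 65% GC the 6 ribosomal protein genes had a median of 0.07, where the others had -0.09, and at 65% or above the 5 had -0.10, where the others had -0.06. The part of base composition in the change was not tested. The change had a Spearman rho of 0.01 with the mean level and of -0.05 with peak length over the 52 genes.

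Gene lists of the translation machinery gave the following counts, with none of their genes past the adjusted threshold. The lists were not limited to peaks near the start. The strongest peaks lay 5707 bases from the annotated start at Mrpl33, 2721 at Mrpl36, 5894 at Eif4g1 and 2931 at Polr1a, all named below. At an unadjusted p under 0.05, 8.9% of all genes were lower and 5.14% higher in Dyrk1b livers. Of 54 mitochondrial ribosomal protein genes, which serve the separate ribosome of the organelle, 29 had a negative log2 change, with a median of -0.06. Their summed level was 2865, 2873 and 2802 CPM in Dyrk1b livers and 3016, 2977 and 2941 CPM in control livers, which with TMM did not overlap but lay closer than the sums of the cytosolic genes. At an unadjusted p under 0.05, 5 mitochondrial genes were higher and 2 lower, among them Mrpl33 (1.47 ± 0.41, adjusted p = 0.132), Mrps6 (0.76 ± 0.30, adjusted p = 0.267) and Mrpl36 (-0.82 ± 0.30, adjusted p = 0.226, all by the edgeR quasi-likelihood test). Of 35 translation factors with a peak, 21 had a negative change, with a median of -0.12, and 6 were lower (17.1%) and 1 higher at an unadjusted p under 0.05. Eif2b2, a subunit of the exchange factor for eIF2, had -0.75 ± 0.26 (adjusted p = 0.204), Eif4g1, the scaffold of the cap complex, had -0.63 ± 0.25 (adjusted p = 0.261), and Eef1g, a subunit of the elongation exchange factor, had -0.57 ± 0.23 (adjusted p = 0.267), by the same test. Eef1g had -0.31 without control 1.

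At genes of ribosome assembly and of rRNA transcription 24 of 35 log2 changes were negative and the median was -0.23, and 4 genes were lower (11.4%) and 0 higher at an unadjusted p under 0.05, near the share of all genes. Rpf1, a factor of large-subunit assembly, had 9.29, 1.10 and 12.3 CPM in Dyrk1b livers, against 46.9, 26.7 and 25.5 CPM in control livers. The groups lay far apart, and the log2 change was -2.06 ± 0.50 (adjusted p = 0.0966, edgeR quasi-likelihood test). Few reads lie behind the Dyrk1b values, and with a library left out the change ran from -2.71 to -1.58. With loess offsets it was -2.48 with an adjusted p of 0.0254 by the edgeR quasi-likelihood test, past the threshold. DESeq2 gave this peak no adjusted p. Polr1a, the largest subunit of RNA polymerase I, had -0.75 ± 0.22 (adjusted p = 0.147), and Rrn3, the factor that brings that polymerase to rDNA, had -0.74 ± 0.26 (adjusted p = 0.211, edgeR quasi-likelihood test for both). Of 13 regulators of ribosomal protein synthesis 10 had negative changes, with a median of -0.12. Tsc1, a brake on mTORC1, had -0.77 ± 0.27 (adjusted p = 0.217), Rheb, its activator, had -0.88 ± 0.32 (adjusted p = 0.227), and Myc, which drives transcription of ribosomal protein genes, had 0.62 ± 0.32 (adjusted p = 0.368, edgeR quasi-likelihood test for all 3). Myc had 0.35 without control 2 and 0.96 without control 1.

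Markers of liver cells were set beside these values. Of the 4 hepatocyte markers with a peak 3 had a negative log2 change, and the 4 had a median of -0.27 and a summed level of 206 to 239 CPM in Dyrk1b livers and 188 to 295 CPM in control livers. The 7 markers of other liver cells with a peak had a median of 0.52, with 5 positive, and sums of 263 to 308 CPM in Dyrk1b livers and 239 to 305 CPM in control livers. None passed the adjusted threshold, and both ranges of sums overlapped. The peaks of the 7 had a median distance of 22085 bases to the annotated start and a median level of 31.7 CPM. At the 52 ribosomal protein genes these were -26.5 bases and 54.4 CPM, so the 7 are mostly weaker peaks away from starts. Of the 7, Stab2, Csf1r, Lrat and Ebf1 did not overlap, with Dyrk1b livers higher (57.1%, against 7.41% of all genes). Spi1, a macrophage factor whose peak held the most reads of the 7, had 70.3, 87.1 and 102.1 CPM in Dyrk1b livers and 127.8, 102.0 and 142.5 CPM in control livers (-0.50 ± 0.21). Its direction was opposite to that of those 4 markers. Pecam1, an endothelial marker like Stab2, had -0.07 ± 0.29, and the groups overlapped. The highest log2 change was that of Ebf1, a B cell factor, at 1.37 ± 0.44 (adjusted p = 0.18, edgeR quasi-likelihood test). The part of cell composition in the change at ribosomal protein genes was not tested.

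Across processing alternatives the ribosomal protein genes had a negative median, and it was below that of genes open near their start, in every setting run. The distance between these medians was -0.19 on the log2 scale with TMM, -0.16 with loess offsets, -0.19 with RPKM library totals and -0.08 without control 1, the smallest. A change of the scaling factor of each library moves the log2 changes of all genes by nearly the same amount. The equal distance with TMM and with RPKM library totals was thus fixed in advance and says nothing of stability.

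**Figure D5:**
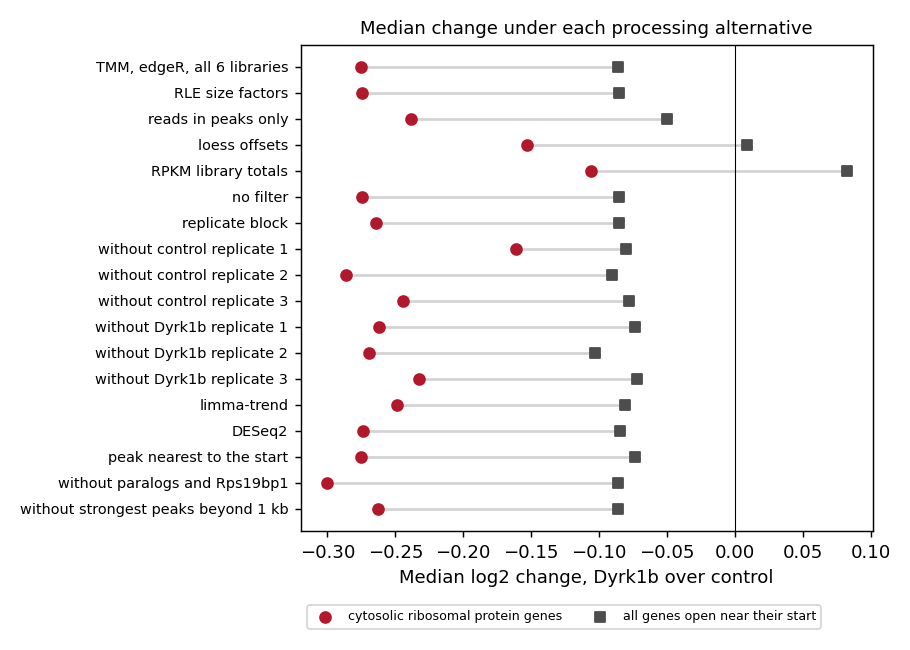
Median log2 change, Dyrk1b over control (x axis), of the cytosolic ribosomal protein genes (circles) and of genes open near their start (squares) under each processing alternative (y axis). The circles run from -0.30 to -0.11, each left of its square. Rows that differ only in the scaling factor of each library keep nearly the same distance by construction.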

How the data were processed

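The authors deposited 1 table of peaks over a merged set, and per the file headers it holds read counts per peak and library, RPKM values, a log2 ratio of the group means with its p-value and FDR, and the gene and class of each peak. It lists 22412 peaks under names that reach 30387, so other peaks were not analysed here, and its lowest count is 1. Bowtie2, DiffBind, ChIPseeker and mm10 appear in the submitters' processing notes. The deposited positions do not match mm10, which is GRCm38. The Rps7 peak, annotated 29 bases before the start, begins at 28685594, and the GRCm38 window around that start lies at 28635934 to 28636053. How peaks were called, duplicates removed, reads shifted for the transposase and the deposited p-values computed is not given in the sources used here, and each step could move weak peaks. Peak coordinates are printed as deposited, with no statement on whether they begin at 0 or 1. Library totals behind the deposited RPKM values, 38.05 M to 48.3 M, were used in an alternative scaling.

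Counts were fitted with edgeR 4.0.16 in R 4.3.3 over the whole table, with TMM normalization, and the quasi-likelihood test of Dyrk1b over control with no covariate. The filterByExpr filter kept 22051 peaks and dropped 361. All 56 member peaks passed the filter. Adjusted p-values are Benjamini-Hochberg values over all 22051 peaks, called under 0.05. The common biological coefficient of variation was 19.9%, and pairs of libraries differed by 2.19 to 4.39 chi-square units per degree of freedom. The fit was tested on simulated counts. Alternatives used DESeq2 1.42.0, limma 3.58.1, other scalings, no filter, a replicate block, each library left out and the peak nearest to the start.

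Motifs were searched in RefSeq promoters of GRCm38.p6. Members and gene lists were chosen with earlier results of these data known. Named genes were those with the 8 lowest p-values in each direction, the 6 highest and 4 lowest levels per kb, every peak outside promoters and 5′ UTRs, every Rplp gene and up to 3 genes of each other list, some of which are not reported here. Sums, medians and counts are over all 52 genes. Rps4x, Rps6, the paralogs, the non-overlapping genes, Rps14 and Rps24 at their further peaks, Rps15a, Rpl28, the cell markers and the Dyrk1b peaks were added after their values were seen. Same-numbered libraries of the groups deviated with correlations of -0.0098, -0.0144 and 0.0073, so no shared deviation was seen. This cannot tell whether they were prepared together. Intervals and SE cover the spread of these libraries.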

Additional observations from a re-analysis of the deposited data

How the results depend on the processing

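No ribosomal protein gene with an adjusted p passed the threshold under any alternative run, with lowest values of 0.174 to 0.572 by edgeR, limma or DESeq2, where DESeq2 gave none to 25 of the 52, so counts of calls say nothing of stability here. The median log2 change of the 52 genes was -0.11 with RPKM library totals, -0.15 with loess offsets and -0.24 with reads in peaks alone, and -0.29 to -0.16 when each library in turn was left out, the last without control 1. Between 39 and 43 changes were then negative, and 2 to 9 genes were lower at an unadjusted p under 0.05, with 2 without control 1 and 2 without Dyrk1b 3. With RPKM library totals 1 gene was. Calls over the whole table numbered 7 with TMM, 4 with reads in peaks alone, 12 with loess offsets, 1 with RPKM totals, 2 with limma-trend, 18 with DESeq2 and 0 to 10 with a library left out, and the cause was not tested. Libraries with the same replicate number showed no shared deviation. With the replicate block the median was -0.26, with 41 negative changes, 0 called members and 7 calls over the whole table. Restricting the genes to the 48 core genes gave a median of -0.30 and leaving out the peaks beyond 1 kb gave -0.26, both alternatives chosen after seeing the data. Of single genes, Rpl15 reversed to -0.13 with loess offsets, and of the genes named for their p or as stalk genes 5 with positive or small changes reversed with a library left out, running from -0.040 to 0.44 at Rpl36a, -0.24 to 0.67 at Rpl15, -0.028 to 0.19 at Rps27l, -0.41 to 0.48 at Rps10 and -0.45 to 0.17 at Rplp2. The median SE of 0.26 holds counting error and spread between libraries together.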
